A study of Mus musculus with 8 samples.

Results

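Solute carriers are membrane proteins that move amino acids, sugars, ions, metals, vitamins, lipids and organic molecules across the plasma membrane and the membranes of organelles, without burning ATP themselves. The members described here are the mouse genes whose single annotated symbol begins with Slc and a number, other than the mitochondrial SLC25 family. The arrays held 303 such genes, each read through its brightest probe set (a group of short probes that report 1 transcript) by the mean of all 8 arrays. The 203 described were selected on their log2 signal: on 4 or more of the 8 arrays it had to exceed that array's 40th percentile. The other 100 are counted but not tested.

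Lymphatic endothelial cells (LEC), which form the drainage vessels of tissue and the route of dietary lipid out of the gut, were compared with blood vascular endothelial cells (BEC), which line arteries, capillaries and veins. Both cell types were sorted by flow cytometry from the colons of the same 4 healthy, untreated C57BL/6J mice aged 8 weeks, after staining for CD31, CD45.2 and podoplanin, which gave 4 LEC arrays and 4 BEC arrays. Mice 1 to 3 were female and mouse 4 was male, and all 8 samples share the digestion, the sort and a linear amplification of the RNA. Per the series design, pairs of good RNA and cDNA quality were selected, so the samples are not a random draw, and the sort gates are not described in the labels.

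Endothelium is the layer that nutrients must pass between blood, tissue and lymph, and its carriers both feed the endothelial cell and serve that transfer. Amino acid carriers of the SLC1, SLC6, SLC7 and SLC38 families load cells with glutamate, taurine, glycine, cationic and neutral amino acids. SLC2 proteins carry glucose and SLC16 proteins carry lactate, pyruvate and other small acids, while SLC30 proteins move zinc out of the cytosol and SLC39 proteins move it in. SLC35 proteins sit in the Golgi and endoplasmic reticulum and supply nucleotide sugars for glycosylation.

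Cell identity on the arrays fitted the labels. Pdpn, among the LEC markers, and Pecam1, among the pan-endothelial markers, encode podoplanin and CD31. Both were stained for the sort, so these genes are no separate check of it. The mean log2 signal of 6 LEC markers (among them Pdpn, Prox1, Lyve1 and Flt4) was 12.55 to 13.26 on LEC arrays and 4.55 to 5.88 on BEC arrays. That of 8 BEC markers was 4.58 to 5.63 on LEC arrays and 10.78 to 11.56 on BEC arrays. Some members were bright in both cell types. Flt4 was 13.16 to 13.81 on LEC and 10.73 to 11.42 on BEC arrays. The BEC marker Emcn was 10.72 to 11.87 on LEC and 11.65 to 12.49 on BEC arrays. The 8 pan-endothelial markers were above background on every array, at means of 9.87 to 10.45 in LEC and 11.12 to 11.65 in BEC. Background was taken per array from 27 control probe sets for bacterial transcripts, as their 95th percentile, a log2 signal of 3.43 to 4.88. Markers of other cells were uneven. The 14 epithelial markers averaged 4.34, 4.33, 8.65 and 4.91 on LEC arrays 1 to 4 and 4.59, 4.99, 10.05 and 7.30 on BEC arrays 1 to 4, so LEC 3, BEC 3 and BEC 4 stood apart. On those arrays all 14, all 14 and 13 of the 14 were above background. The 7 fibroblast markers averaged 4.17, 9.08, 5.16 and 8.14 on the LEC arrays and 3.52 to 4.14 on the BEC arrays, and the 12 enteroendocrine markers reached 7.38 on BEC 4, against 2.80 to 4.99 on the other arrays. The 8 mural cell markers averaged 2.47 to 4.70 on LEC arrays and 4.51 to 5.58 on BEC arrays. Among them the pericyte gene Rgs5 was -0.97 to 5.55 in LEC and 9.04 to 10.04 in BEC, and Acta2 was 3.39 to 5.88 in LEC and 6.45 to 7.89 in BEC. Pdgfrb leaned the other way, with 3.46 to 6.16 in LEC and 2.54 to 3.80 in BEC. The LEC and BEC values of Pdgfrb, Myh11, Des, Cspg4, Tagln and Cnn1 overlapped. The part of mural cells in the carriers called lower in LEC was not tested. The 8 leukocyte markers averaged 3.21 to 4.69 in LEC and 2.42 to 4.58 in BEC. LEC 1 also stood apart, with Spearman correlations over the genes tested of 0.591 to 0.625 with the other LEC arrays, which correlated at 0.745 to 0.777 among themselves. Because each sample is a sorted population and not single cells, fewer cells of a type and less RNA per cell cannot be told apart.

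Of the 10 carriers called below, the start regions of 3 are shown. Slc16a12 and Slc45a3 had the largest differences, 7.69 and 7.24 on the log2 scale (LEC minus BEC). The zinc exporter Slc30a1 (-3.27) is known to be switched on by zinc through metal response elements. Slc9a9, Slc38a4, Slc6a6, Slc1a1 and Slc6a9 differed by more than Slc30a1 and are not shown, and Slc6a6 had no listed promoter. Each region is 300 bases of the gene's strand from RefSeq (GRCm38.p6), from 250 bases before to 50 after the transcription start, in lower case. Capitals mark, on either strand, TGCNCNC or an ETS core (CCGGAA, the letters bound by ETS factors such as those that act in endothelium). TGCNCNC is looser than the metal response element core, which has A or G as its first N.
Slc16a12, chr19:34747279-34747578, minus strand
Slc16a12: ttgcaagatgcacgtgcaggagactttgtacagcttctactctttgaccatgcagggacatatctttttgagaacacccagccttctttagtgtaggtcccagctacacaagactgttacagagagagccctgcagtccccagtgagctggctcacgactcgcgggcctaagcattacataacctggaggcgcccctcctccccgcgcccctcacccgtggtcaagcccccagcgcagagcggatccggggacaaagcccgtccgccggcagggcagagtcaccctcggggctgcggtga
Slc45a3, chr1:131962665-131962964, plus strand, the first of 2 listed starts
Slc45a3: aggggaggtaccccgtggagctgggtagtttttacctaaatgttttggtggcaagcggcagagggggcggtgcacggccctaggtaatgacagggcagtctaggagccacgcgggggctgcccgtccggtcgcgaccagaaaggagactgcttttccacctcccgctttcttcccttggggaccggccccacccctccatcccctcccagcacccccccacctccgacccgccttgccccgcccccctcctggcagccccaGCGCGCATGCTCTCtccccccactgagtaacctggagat
Slc30a1, chr1:191906531-191906830, plus strand
Slc30a1: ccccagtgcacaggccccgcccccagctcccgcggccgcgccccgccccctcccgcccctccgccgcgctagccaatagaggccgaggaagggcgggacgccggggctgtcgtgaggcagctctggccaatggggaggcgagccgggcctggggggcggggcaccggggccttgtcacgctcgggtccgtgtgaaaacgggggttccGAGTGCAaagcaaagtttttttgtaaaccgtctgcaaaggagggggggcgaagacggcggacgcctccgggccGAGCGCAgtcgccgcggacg
The Slc16a12 window held neither pattern. The Slc45a3 window held TGCNCNC at bases 262 to 268 and at 269 to 275, which adjoin on opposite strands. The stretch at 269 to 275 has T where the metal response element core has A or G, so it is not that core. The Slc30a1 window held TGCNCNC at bases 208 to 214 and at 281 to 287, both read on the minus strand. Of the promoters listed for all genes (27025, the first start of each), 50.4% held TGCNCNC, 35.9% held the GC box GGGCGG and 15.2% held CCGGAA. Among the 155 carriers with a listed promoter these shares were 61.3%, 63.9% and 25.2%, and among the 8 called carriers with one, 4, 6 and 1 windows held the 3 motifs. A match of letters is a description and not a binding site.

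Of the 203 carriers, 5 were higher and 5 lower in LEC than in BEC (limma, adjusted p under 0.05 over all genes tested). Those 10 are 4.93% of the carriers, beside 4.07% of all 13259 genes tested that were called in either direction. By direction the carriers' shares were 2.46% higher and 2.46% lower, beside 1.76% and 2.31% of all genes. The split of all genes, 234 higher and 306 lower, depended on scaling and was 162 and 336 with equal array medians and 123 and 280 with equal hybridisation controls, under which 4 and 4 carriers were higher and 5 and 4 lower. The share of carriers called was thus near the background. Higher in LEC were Slc16a12, Slc45a3, Slc9a9, Slc38a4 and Slc6a9, and lower in LEC were Slc6a6, Slc1a1, Slc30a1, Slc44a2 and Slc43a3. The LEC and BEC values did not overlap for 21 carriers (10.3%), 10 with LEC above and 11 with LEC below, beside 10.4% of all genes in either direction and 5.19% in each. An unadjusted p under 0.05 was found for 39 carriers (19.2%), beside 14.4% of all genes, and the 29 of them that were not called are not counted as changed.

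**Figure D1:**
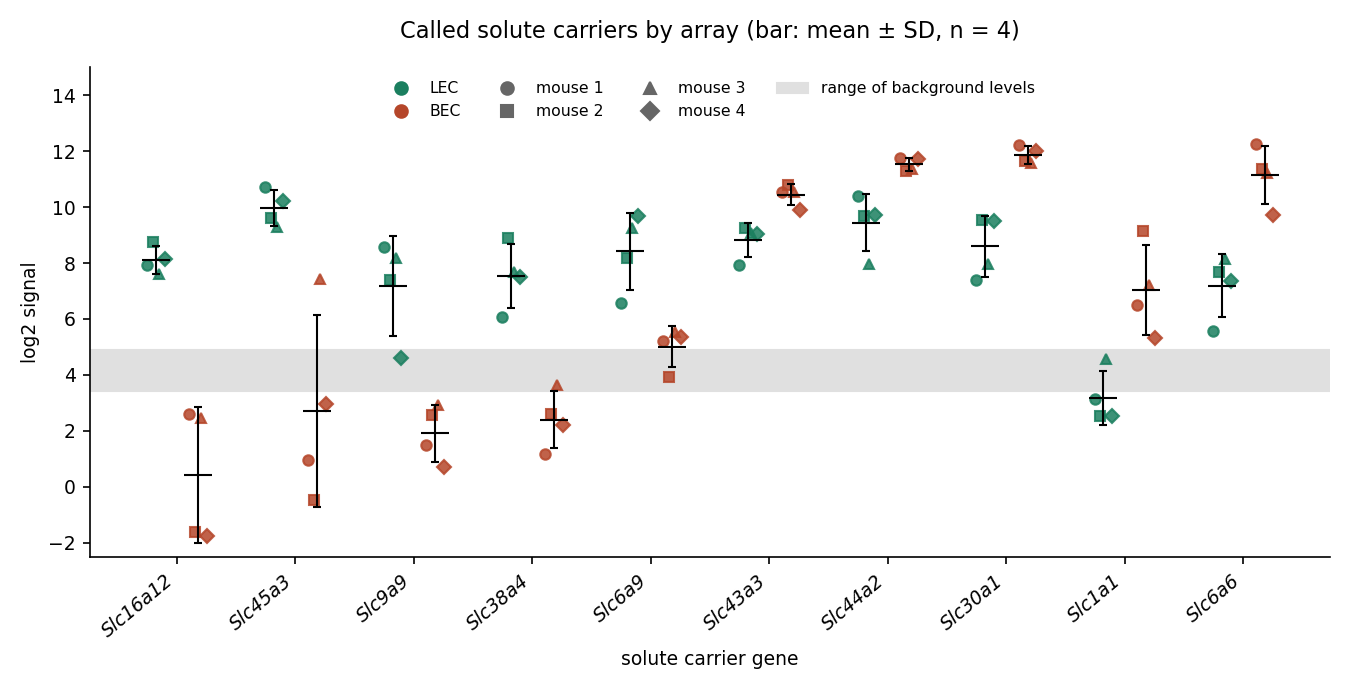
Log2 signal (y axis) of the 10 called carriers (x axis) on each array. Each point is an array, with its shape giving the mouse, LEC left of BEC, bars at the mean ± SD (n = 4 each) and a grey band over the range of background levels. For every gene the 4 LEC values lie apart from the 4 BEC values, and the 4 BEC values of Slc16a12, from -1.78 to 2.59, lie under the band.

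Slc16a12, a member of the monocarboxylate transporter family known to carry creatine, had log2 signals of 7.92, 8.76, 7.60 and 8.16 in LEC from mice 1 to 4, against 2.59, -1.62, 2.46 and -1.78 in BEC. It was above background on all LEC arrays and on no BEC array. The fitted difference was 7.69 ± 1.11 (log2, LEC minus BEC, ± SE; limma, adjusted p = 0.0011), and with BEC values raised to background it was at least 21.2-fold higher in LEC. Its values passed the filter through LEC alone, so the filter itself required LEC to stand above BEC here, and the same holds for Slc9a9. The other 12 carriers of monocarboxylates and dicarboxylates with a signal above the filter were not called. The lactate and pyruvate carrier Slc16a1 (MCT1) had 4.26, 2.77, 9.57 and 6.61 in LEC, against 8.32, 8.80, 9.77 and 9.36 in BEC (difference -3.26 ± 1.14, adjusted p = 0.167), with LEC 3, an array bright in epithelial markers, inside the BEC range. Without LEC 3 its adjusted p was 0.00983, and it was called under no other alternative. The lactate exporter Slc16a3 (MCT4) averaged 5.82 ± 0.38 in LEC and 5.50 ± 1.16 in BEC (means with SD over 4 arrays each; adjusted p = 0.902).

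Slc45a3, prostein, a protein first described in prostate and reported as a sugar transporter, had 10.73, 9.60, 9.28 and 10.23 in LEC, against 0.96, -0.48, 7.42 and 2.98 in BEC. BEC 3 was the only BEC array above background. The difference was 7.24 ± 1.31 (adjusted p = 0.00531), at least 38.3-fold higher in LEC, and at least 71.8-fold without BEC 3. Without the 3 arrays bright in epithelial markers it was 9.95 ± 0.95 (adjusted p = 7.7e-04). The other 19 carriers of sugars and polyols were not called. Among them the glucose transporter Slc2a1 (GLUT1), which marks blood-brain barrier endothelium, averaged 9.63 ± 0.60 in colon LEC and 9.73 ± 0.97 in colon BEC (difference -0.10 ± 0.51, adjusted p = 0.960). Its 2 other probe sets gave -1.14 and -1.61, and the mean of its probe sets -0.95 (adjusted p = 0.605). Slc2a3 (GLUT3) averaged 3.67 ± 0.86 in LEC and 4.40 ± 2.04 in BEC, and Slc2a8, an intracellular glucose transporter, 5.95 in LEC and 5.38 in BEC, with adjusted p of 0.834 and 0.830.

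Slc9a9, a sodium-proton exchanger of endosomes (NHE9), had 8.57, 7.40, 8.17 and 4.61 in LEC, against 1.48, 2.56, 2.93 and 0.69 in BEC. LEC from the male mouse 4 was the lowest of the LEC values and still above every BEC value. The difference was 5.27 ± 0.99 (adjusted p = 0.00686), at least 11.2-fold higher in LEC and at least 20.3-fold without LEC 4. Its other probe set that passed the filter gave 3.14 with an adjusted p of 0.164, and without the 3 arrays bright in epithelial markers the difference was 4.84 with an adjusted p of 0.119.

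The other 23 bicarbonate, proton and chloride carriers above the filter were not called, and their group had a median difference of -0.56, beside 0.08 over all genes tested. Of the 24 in the group, 5 were above background on all 8 arrays, beside 45% of all genes tested. All 6 detected SLC12 cation-chloride cotransporters had negative differences (-3.06 to -0.14, median -1.77), but only 3 of them were above background on all 8 arrays. Slc12a3 was above background on no LEC array. Slc12a7 (KCC4), which lets potassium and chloride leave cells, had 8.24, 6.75, 6.78 and 3.19 in LEC, against 9.38, 9.22, 9.10 and 9.52 in BEC. Every LEC value was below every BEC value, with a difference of -3.06 ± 0.87 that missed the threshold (adjusted p = 0.0726). The adjusted p was 0.0235 without LEC 1 and 0.0753 to 0.183 with any other array left out. Slc12a7 was also called with equal array medians (adjusted p = 0.0421) and with values raised to background (0.0194). The mean of its probe sets gave -4.84 (adjusted p = 1.3e-04). Another probe set of the same gene gave -6.61 (adjusted p = 2.82e-04). Slc12a2 (NKCC1), which loads cells with sodium, potassium and chloride, averaged 6.83 ± 0.93 in LEC and 8.69 ± 1.07 in BEC (adjusted p = 0.192). Its other probe sets gave -2.77 (adjusted p = 0.0612) and -1.60 (adjusted p = 0.479). Its highest values in each cell type were on the arrays bright in epithelial markers, 8.04 on LEC 3, 9.51 on BEC 3 and 9.40 on BEC 4. The anion exchanger Slc4a2 differed by 1.00 ± 0.70 (adjusted p = 0.589).

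Among 35 carriers grouped under amino acids and peptides, 2 were higher and 3 lower in LEC, with a group median of 0.10. Groups follow the family number with set exceptions, and Slc43a3 is counted here by its family. Slc38a4 (SNAT4), a sodium-coupled carrier of neutral amino acids, had 6.07, 8.90, 7.66 and 7.51 in LEC, against 1.17, 2.58, 3.62 and 2.23 in BEC. All 4 LEC values lay above all BEC values, and only BEC 3 reached background. The difference was 5.14 ± 0.85 (adjusted p = 0.0027), at least 13.8-fold higher in LEC, and its other probe set gave 5.88 (adjusted p = 0.00669). The value was highest on LEC 2 and lowest on LEC 1, where the fibroblast markers were also highest (9.08) and lowest (4.17) among LEC arrays, while LEC 3 and LEC 4 had similar values with marker means of 5.16 and 8.14. The part of those cells in the result was not tested.

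Slc6a9 (GlyT1), a sodium-coupled glycine transporter, had 6.56, 8.18, 9.25 and 9.69 in LEC, against 5.21, 3.92, 5.53 and 5.37 in BEC. The groups did not overlap, and LEC 1 was the nearest to BEC. It was 10.6-fold higher in LEC (difference 3.41 ± 0.76, adjusted p = 0.0214) and 16.3-fold without LEC 1. The call was lost without LEC 2, LEC 3, LEC 4 or BEC 2 (adjusted p = 0.0501 to 0.0781), and its other probe set gave 2.54 with an adjusted p of 0.162.

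Slc6a6 (TauT), the sodium- and chloride-coupled taurine transporter, had 5.58, 7.70, 8.15 and 7.36 in LEC, against 12.24, 11.38, 11.24 and 9.74 in BEC. All LEC values were below all BEC values, and all 8 were above background. It was 15.5-fold lower in LEC (difference -3.95 ± 0.64, adjusted p = 0.0023), and its 3 other probe sets gave differences of -6.25 to -3.17, each with an adjusted p under 0.05. Without the 3 arrays bright in epithelial markers the difference was -4.93 ± 0.78 (adjusted p = 0.0099).

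Slc1a1 (EAAC1), a transporter of glutamate, aspartate and cysteine, had 3.12, 2.52, 4.57 and 2.53 in LEC, against 6.51, 9.14, 7.21 and 5.31 in BEC. Only LEC 3 exceeded its background among the LEC arrays. Slc1a1 passed the filter on all 4 BEC arrays and on 1 LEC array, so it entered the set mainly through BEC, where it was higher. The difference was -3.86 ± 0.91 (adjusted p = 0.0288), at least 6.06-fold lower in LEC, and at least 3.73-fold without BEC 2. It lost the call without LEC 2, LEC 4, BEC 1, BEC 2 or BEC 3 (adjusted p = 0.0588 to 0.121) or with values raised to background (0.065), and its 2 other probe sets gave -6.28 (adjusted p = 0.00118) and -2.36 (adjusted p = 0.324).

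Slc43a3, whose relatives carry branched amino acids and which itself is known from human cells as a purine nucleobase carrier, had 7.95, 9.27, 9.07 and 9.06 in LEC, against 10.53, 10.79, 10.53 and 9.91 in BEC. It was 3.05-fold lower in LEC (difference -1.61 ± 0.42, adjusted p = 0.0479). The call was lost when the mouse was fitted as a block (adjusted p = 0.0613) and when any 1 of the 8 arrays was left out (0.0615 to 0.162).

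The remaining amino acid carriers known from endothelium or from many cell types had no call. Slc3a2, the heavy chain that partners several SLC7 transporters, averaged 7.95 ± 1.02 in LEC and 9.43 ± 0.66 in BEC (difference -1.48 ± 0.58, adjusted p = 0.236). Its large neutral amino acid partner Slc7a5 (LAT1) averaged 4.51 ± 2.26 in LEC and 2.54 ± 2.00 in BEC (adjusted p = 0.553). The arginine and lysine transporter Slc7a1 (CAT1), the SNAT2 gene Slc38a2, the glutamine carrier Slc38a3 and the neutral amino acid exchangers Slc1a4 and Slc1a5 had differences of -0.63 to 0.75, with adjusted p from 0.595 to 0.903. Ranges overlapped between the cell types for all 7.

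Metal carriers were the group with the most members above background on all 8 arrays, 17 of 29 (58.6%), beside 28.6% of all the carriers and 45% of all genes tested. Of the 29, 1 was called. Slc30a1 (ZnT1), which exports zinc across the plasma membrane, had 7.38, 9.55, 7.97 and 9.50 in LEC, against 12.24, 11.65, 11.58 and 12.01 in BEC. The BEC values lay close together, and every LEC value was below the lowest of them. It was 9.63-fold lower in LEC (difference -3.27 ± 0.49, adjusted p = 0.00137), and its other probe set gave -2.38 (adjusted p = 0.0467). Without the 3 arrays bright in epithelial markers the difference was -3.13 ± 0.69 (adjusted p = 0.0548).

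None of the 12 detected SLC39 zinc importers was called, and their median difference was -0.03. Slc39a8 (ZIP8) averaged 7.26 in LEC and 7.74 in BEC, and Slc39a14 (ZIP14) 7.73 in LEC and 7.26 in BEC, with adjusted p of 0.884 and 0.843. Slc40a1 (ferroportin), the iron exporter, differed by 1.15 ± 1.20 (adjusted p = 0.737), and Slc11a2 (DMT1), an importer of iron, by 0.53 ± 1.21 (adjusted p = 0.900). Slc48a1 (HRG1), which carries haem out of endosomes and lysosomes, had 4.80, 5.53, 4.29 and 7.75 in LEC, against 8.90, 8.62, 7.97 and 7.59 in BEC. LEC 4 overlapped the BEC range, and the difference of -2.68 ± 0.77 was not called (adjusted p = 0.0775). The adjusted p was 0.0155 without LEC 4 and 0.117 to 0.202 with any other array left out. Slc48a1 was also called with values raised to background (adjusted p = 0.0432).

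Of 10 carriers of lipids, bile acids and choline, 1 was called. Slc44a2 (CTL2), a choline transporter-like protein, had 10.40, 9.67, 7.98 and 9.72 in LEC, against 11.76, 11.28, 11.35 and 11.71 in BEC. LEC 3 was the lowest array, and no LEC value reached a BEC value. It was 4.24-fold lower in LEC (difference -2.09 ± 0.46, adjusted p = 0.0186), but its other probe sets gave -1.99 (adjusted p = 0.0919) and -0.56 (adjusted p = 0.850), and the call was lost without BEC 1 or BEC 4 (0.0641 and 0.0666). All 3 detected SLC44 members had lower values in LEC than in BEC of each of the 4 mice, as had 23 of the 203 carriers and 1473 of the 13259 genes tested. Of the 3, Slc44a4 is among the epithelial carriers described below. The fatty acid transport proteins Slc27a1 and Slc27a4 differed by 0.04 ± 0.95 and 0.73 ± 1.12, with adjusted p of 0.992 and 0.848. Slc10a6, a carrier of sulfated steroids that is named here after its values were seen, differed by 3.53, with an adjusted p of 0.164. The adjusted p was 0.0165 with the mouse as a block and 0.0473 with values raised to background.

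No carrier was called among 22 of nucleotide sugars and acetyl-CoA, 26 of other organic solutes, 7 of sodium, calcium and phosphate, 7 of vitamins and 4 of nucleosides, nor among 6 genes that bear the prefix without being carriers by themselves. The CMP-sialic acid transporter Slc35a1, needed to put sialic acid on glycoproteins, averaged 8.64 ± 0.85 in LEC and 9.08 ± 1.06 in BEC (difference -0.44, adjusted p = 0.824; -1.25 as the mean of its probe sets, adjusted p = 0.339). The scaffold protein Slc9a3r2 (NHERF2) averaged 12.26 ± 0.26 in LEC and 12.55 ± 0.33 in BEC, a difference of -0.30 ± 0.23 (adjusted p = 0.642). Sodium, calcium and phosphate carriers had a median difference of 1.08 and vitamin carriers of 0.86, beside 0.08 over all genes. These medians rest largely on dim genes. Of the 7 members of each group, none and 1 were above background on all 8 arrays, beside 45% of all genes tested. The sodium-calcium exchanger Slc8a1 (NCX1) averaged 5.79 ± 2.13 in LEC and 2.48 ± 1.64 in BEC (difference 3.30 ± 1.17, adjusted p = 0.176). For the phosphate transporter Slc20a1 (PiT1) and the thiamine transporter Slc19a3, every LEC value was above every BEC value, and adjusted p was 0.293 and 0.248. The filter itself favoured that separation for Slc19a3, which passed on LEC arrays alone and was above background on 1 LEC array and no BEC array. With values raised to background the differences were 1.69 for Slc20a1, 0.61 for Slc19a3 and 2.05 for Slc8a1, none of them called. The reduced folate carrier Slc19a1 and the nucleoside transporter Slc29a1 (ENT1) differed by 0.86 ± 0.76 and 1.37 ± 0.78 (adjusted p = 0.687 and 0.470).

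Slc22a4 (OCTN1), which takes up the antioxidant ergothioneine, had 8.28, 4.67, 4.72 and 4.11 in LEC, against 0.57, -0.28, -0.83 and 4.29 in BEC. LEC 1 was high, and BEC 4 lay above LEC 4, so the groups overlapped. The difference of 4.51 ± 1.32 was not called (adjusted p = 0.0836). Its adjusted p was 0.0322 without BEC 4 and 0.109 to 0.233 with any other array left out. BEC 4 was the only BEC array above background, and with values raised to background the difference was 1.53 (adjusted p = 0.315).

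**Figure D2:**
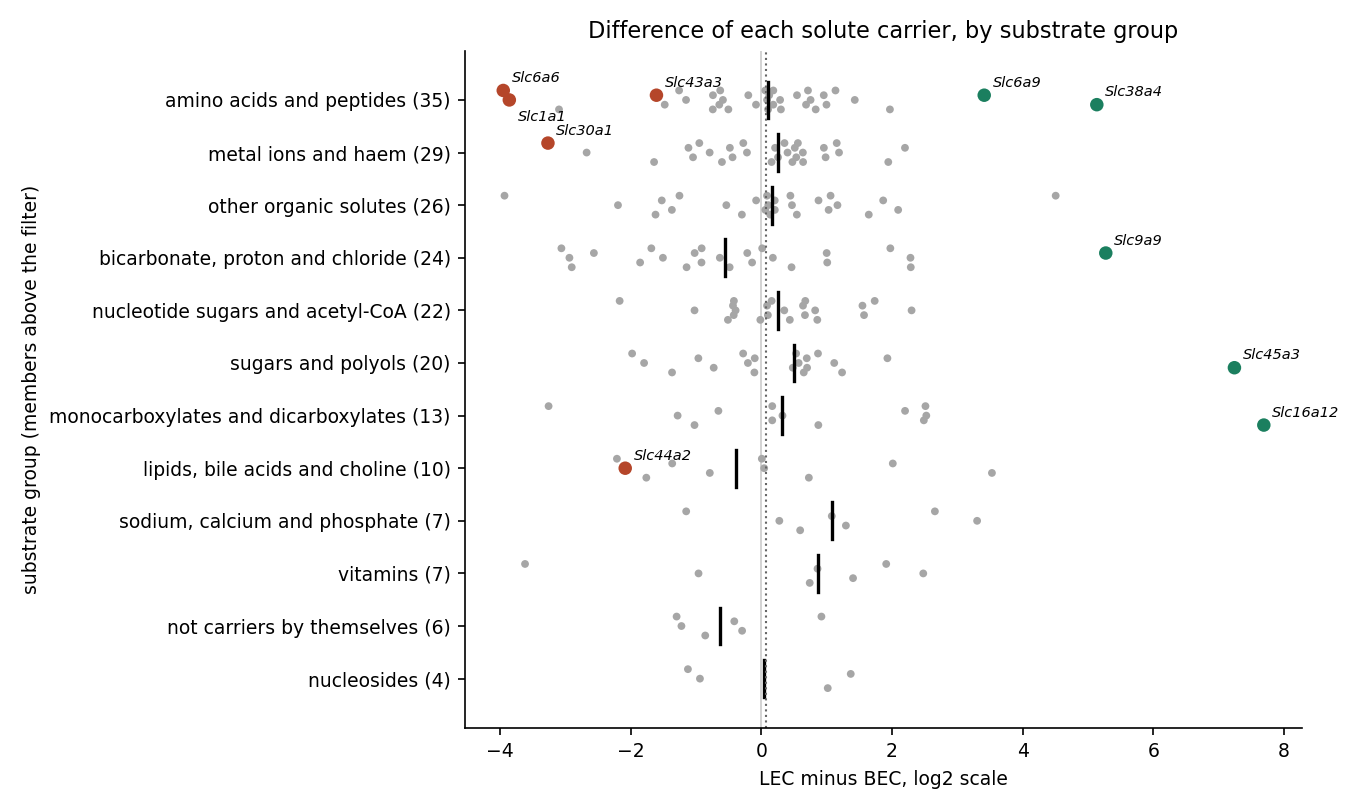
Difference between LEC and BEC (x axis, log2, LEC minus BEC) of each of the 203 carriers, in rows by substrate group with the number of members. Green points are called higher and red points called lower in LEC, grey points are not called, black bars are group medians, and the dotted line is the median of all genes tested (0.08). The amino acid and peptide group holds 5 of the 10 calls, in both directions, among them Slc43a3, which was placed there by its family.

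A list of 40 carriers known from endothelium or expressed in many cell types was also read. It was written with earlier results of these data known, so its counts are a description. Of these, 33 passed the filter, 4 were lower in LEC (Slc6a6, Slc1a1, Slc30a1 and Slc44a2), none was higher, and 29 were not called, with a median difference of 0.30 beside 0.08 over all genes. The 4 called are 12.1% of the 33, beside 2.31% of all genes called lower and 4.07% called in either direction. Slc7a8, Slc7a11, Slc38a5 and Slc27a3 did not pass the filter, and 3 of the 40 were not analysed here. The 5 carriers called higher in LEC were all outside this list.

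**Figure D3:**
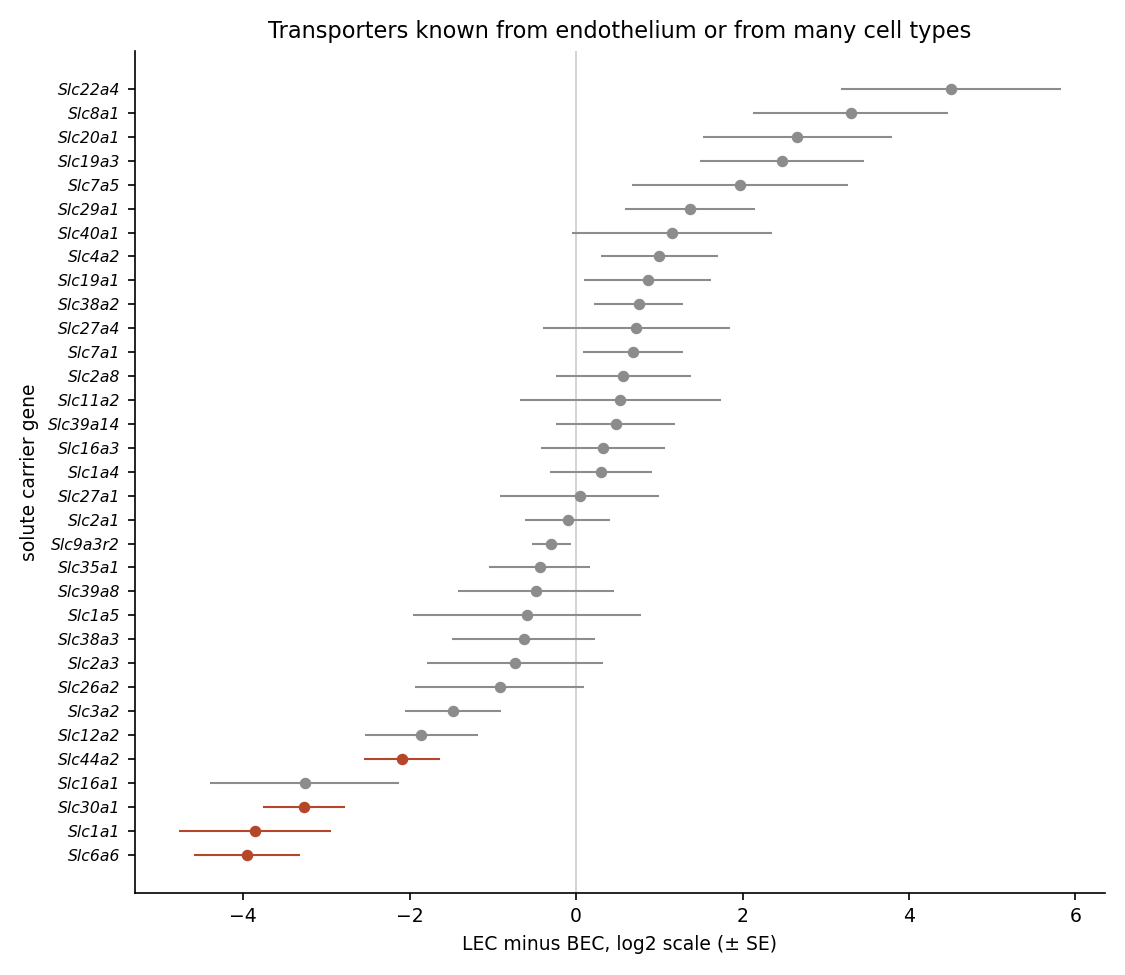
Difference between LEC and BEC (x axis, log2, LEC minus BEC, with bars of ± 1 SE) for the 33 listed carriers that passed the filter (rows). Red marks the 4 called lower in LEC, and grey marks those not called, which run from -3.26 for Slc16a1 to 4.51 for Slc22a4.

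Because epithelial markers were bright on 3 arrays, 8 carriers known from colon epithelium were read array by array. The list was written after the marker values were seen. Their mean log2 signal was 4.91, 3.16, 5.62 and 3.76 on LEC arrays 1 to 4 and 4.17, 3.99, 8.46 and 5.23 on BEC arrays 1 to 4, and all 8 were above background on BEC 3 and BEC 4, against 2 to 5 of the 8 on the other arrays. Slc26a3 (DRA), the chloride-bicarbonate exchanger of colonocytes, had 3.05, 3.33, 3.17 and 2.70 in LEC, against 5.17, 6.27, 8.48 and 4.09 in BEC. Every LEC value was below every BEC value, a separation that the filter itself favoured in a gene that passed on BEC arrays alone. The difference of -2.94 ± 0.95 was not called (adjusted p = 0.128), and it was -1.74 with values raised to background. Slc26a2, a sulfate transporter of many tissues and of colonocytes, was 10.39 on BEC 3 and 8.78 on LEC 3, against 4.37 to 7.21 on the other arrays. Slc18a1 (VMAT1), a vesicular monoamine transporter of enteroendocrine cells named here after its values were seen, was highest on BEC 4 at 8.48, where the enteroendocrine markers averaged 7.38. The part of epithelial RNA in the differences above was not tested as such. Without LEC 3, BEC 3 and BEC 4, Slc16a12, Slc45a3, Slc38a4 and Slc6a6 were still called. The other 6 called carriers lost the call (adjusted p = 0.0548 to 0.213), while their differences kept their direction. Calls over all genes tested fell from 540 to 216 in that fit, where fewer arrays and less epithelial RNA cannot be told apart.

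**Figure D4:**
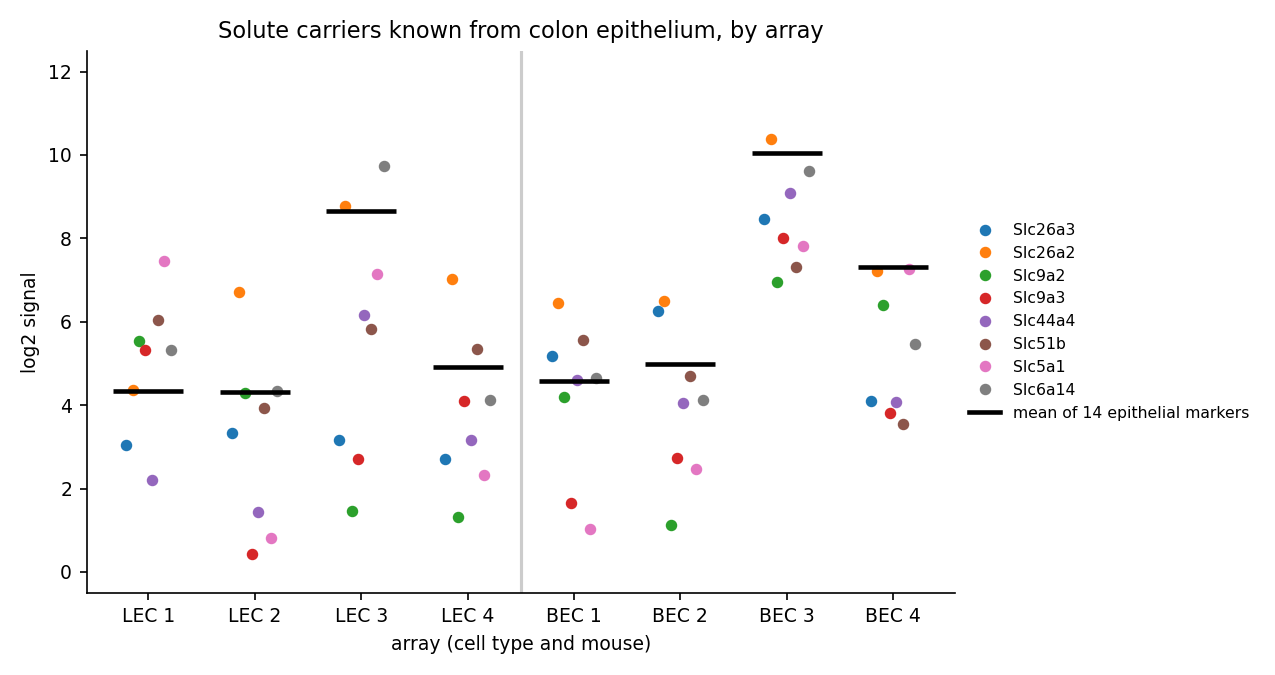
Log2 signal (y axis) of 8 carriers known from colon epithelium on each array (x axis, LEC left of BEC, by mouse). Coloured points are carriers and black bars are the mean of 14 epithelial markers, which is 10.05 on BEC 3 and 8.65 on LEC 3. The carriers are brightest together on BEC 3, from 6.95 to 10.39.

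The filter decided the outer edge of the set. The members that passed by the smallest margin were Slc12a3, Slc27a5 and Slc6a7, whose signals ran from -0.28 to 5.34 over the 8 arrays, and those that missed by the smallest margin were Slc7a9, Slc3a1 and Slc2a13, whose signals ran from -1.32 to 6.60. Of the 203 members, 3 (Slc16a12, Slc9a9 and Slc19a3) passed on all 4 LEC arrays and no BEC array, and 1 (Slc26a3) on all 4 BEC arrays and no LEC array, beside 0.716% of all genes tested that passed in such a way. Another probe set passed the filter for 83 members. For 8 of the 10 called carriers there were 12 such probe sets, all with the sign of the one taken, and 7 of the 12 had an adjusted p under 0.05.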

How the data were processed

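RNA of LEC and BEC sorted from 4 mice was measured on 8 single-colour arrays. The deposited table holds log2 values, made by the authors with MAS5 (version not stated) per the submitters' processing notes. The 2% trimmed mean of the linear signal was 100.04 on every array, read from the values, so equal total signal is assumed in both cell types. Genes were named from the platform annotation of 2016, updated through the gene number to RefSeq symbols. Of 45101 probe sets, 34945 had 1 gene (34741 matched), 932 several and 9160 none, and 64 were controls.

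The filter given above was applied to all 18193 genes, and limma 3.58.1 (R 4.3.3) was run on the 13259 that passed (lmFit, eBayes with an intensity trend, cell type as the only term, two-sided, Benjamini-Hochberg adjustment). The fit was tested on simulated data. A ratio is written "at least" where 1 or more arrays of the dimmer group lay at or under background, and values are then raised to background. Members, substrate groups and lists were chosen with earlier results of these data known, and 4 genes were moved to the group of genes that are not carriers after their annotation was seen. Named are all called carriers, the others with an unadjusted p under 0.01, the list of 40 carriers, and the 3 on each side of the filter. Further names are marked in the text.

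LEC and BEC of 1 number are from 1 mouse, per the series design. Same-mouse deviations correlated at 0.142, 0.0776, 0.181 and 0.051, and each LEC array correlated best with its own mouse, while BEC 4 correlated more with LEC 3 (0.0747). The number of arrays limits the precision. Alternatives were other normalizations, filters, probe set rules and variance priors, the mouse as a block and leaving out arrays. SLC25 genes, another 44 on the array, were left out of the description.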

Additional observations from a re-analysis of the deposited data

Results flagged for a closer look

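Among the 42 carriers named by the rule with a signal above the filter, 84 groups of 4 arrays were searched for a single array far from the other 3, and 6 were found. Chance alone gives about 1 in 20 groups. LEC 1 was the distant array for 3 genes, with 7.95 for Slc43a3 (9.06 to 9.27 on the other LEC arrays), 8.28 for Slc22a4 (4.11 to 4.72) and 9.44 for Slc38a2 (8.97 to 9.0). BEC arrays were distant for the other 3, with 3.25 for Slc2a8 on BEC 3 (5.95 to 6.25 on the other BEC arrays), 6.61 for Slc1a4 on BEC 4 (8.37 to 8.69) and 0.64 for Slc20a1 on BEC 1 (5.86 to 6.30). Of these genes only Slc43a3 was called, and it was not called without LEC 1 (difference -1.31, adjusted p = 0.0691).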

How the results depend on the processing

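Slc16a12, Slc45a3, Slc38a4 and Slc6a6 kept their call under every alternative in which they were tested, Slc30a1 and Slc9a9 under all but the one without the 3 arrays bright in epithelial markers, Slc44a2 under 15 of 20, Slc6a9 under 13 of 20, Slc1a1 under 11 of 18 and Slc43a3 under 5 of 20. Carriers called higher in LEC numbered 1 with the 40th percentile required on 6 of 8 arrays or on 2 of 4 arrays per cell type. That was Slc6a9, since both filters left Slc16a12, Slc45a3, Slc9a9 and Slc38a4 untested. Those carriers had passed on 4 LEC arrays and at most 1 BEC array. Both filters also left Slc1a1 untested, which was called lower and had passed on 4 BEC arrays and 1 LEC array. Without the 3 epithelial-bright arrays 3 carriers were called higher, and 216 of all genes were called. Carriers called lower numbered 3 without the intensity trend or with 2 of 4 arrays of each cell type, and 1 without the 3 arrays. Called carriers fell in 6 substrate groups, and in 3 under those filters or without the 3 arrays. Leaving out 1 array at a time gave 4 to 6 higher, 2 to 7 lower, 5 to 7 groups and 352 to 556 of all genes, with the 7 lower found without LEC 1, when Slc12a7 (0.0235), Slc4a4 (0.0238) and Slc52a3 (0.0404) were added. The settings with hybridisation controls, 2 of 4 arrays and the 3 arrays were chosen after seeing the data.

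With the mouse as a replicate block, 6 carriers were higher and 4 lower. Slc10a6 was added (0.0165) and Slc43a3 lost (0.0613), and no other carrier's call changed.

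Equal medians and equal hybridisation controls moved the median of all genes to -0.20 and -0.31, and 8 of the 10 calls remained under each. Uncalled differences changed sign as follows, with causes not tested. Without the 3 arrays they were -0.04 for Slc2a8, -0.13 for Slc1a4, -0.08 for Slc27a1, 0.81 for Slc39a8, -0.25 for Slc39a14, -0.45 for Slc11a2 and 0.16 for Slc35a1. Hybridisation controls gave -0.09 for Slc1a4, -0.07 for Slc16a3 and -0.35 for Slc27a1, equal medians -0.23 and quantiles -0.02 for Slc27a1, and the mean of probe sets -0.03 for Slc39a14. With 1 array left out the ranges were -0.40 to 0.27 for Slc2a1, -0.14 to 0.86 for Slc2a8, -0.18 to 0.52 for Slc1a4, -1.99 to 0.26 for Slc1a5, -0.13 to 0.69 for Slc16a3, -0.40 to 0.68 for Slc27a1, -1.04 to 0.30 for Slc39a8, -0.03 to 1.06 for Slc39a14, -0.56 to 1.23 for Slc11a2 and -0.71 to 0.08 for Slc35a1.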
